A study of Rattus norvegicus with 8 samples.

Results

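The proteasome subunits and regulators printed on a rat whole genome array were examined in primary thymocytes cultured with or without a glucocorticoid. Members were all probes whose gene name on the array, after the suffix "_predicted" had been removed, begins with Psma, Psmb, Psmc, Psmd, Psme or Psmf and a digit. This rule found 50 probes for 42 gene names, of 41012 probes and 35561 names in all. They comprised 7 genes of the alpha ring (Psma1 to Psma7), 7 of the constitutive beta ring (Psmb1 to Psmb7), 5 of the immunoproteasome (Psmb8, Psmb9, Psmb10, Psme1 and Psme2), 6 cap ATPases (Psmc1 to Psmc6), 13 cap non-ATPases (Psmd1 to Psmd13) and the 2 activators Psme3 and Psme4. The cap non-ATPases were grouped by the name Psmd alone, so they take in an assembly chaperone of the base such as Psmd5. A further 2 names matched the rule but were kept out of these classes. Psmc3ip encodes a meiotic recombination factor that binds a cap ATPase, and Psma3l is a near copy of Psma3 whose signal may not be separable from it. No probe carried the name Psmd14, the lid deubiquitinase, or Psmf1, the inhibitor PI31.

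Thymocytes came from adrenalectomized male Sprague-Dawley rats, with the thymi of 3 animals pooled for a preparation, so their own adrenal steroids had been removed in both groups. The cells were cultured for 6 hours in serum-containing medium without added hormone (Control, 4 arrays) or with dexamethasone, a synthetic glucocorticoid, at 100 nM (Dex, 4 arrays). Their RNA was labeled in 1 color and hybridized to 60-base probes. Values are log2 intensities normalized between arrays, on which 1 unit is a doubling, and they compare a probe between arrays and not 1 probe with another. The study searched for miRNAs that respond to glucocorticoids, and the arrays served to see which of their predicted targets change in thymocytes driven into apoptosis.

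The 26S proteasome degrades proteins that carry ubiquitin chains. Its core is a barrel of outer alpha rings, which gate the entrance, and inner beta rings, which hold the proteolytic sites. A cap of ATPases unfolds the substrate and non-ATPase subunits bind ubiquitin and remove it. Interferon induces replacement beta subunits, which form the immunoproteasome that cuts peptides for presentation by class I molecules, and the PA28 activator made of Psme1 and Psme2. Proteasome activity has long been studied in thymocytes, in which inhibitors of it alter glucocorticoid-induced death.

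All 50 member probes were well above background on all 8 arrays by the scanner software's flag. Group means ranged from 7.87 to 15.7 on the log2 intensity scale, and no spot on any array was saturated. Between 24937 and 34488 of all probes were well above background on an array, with the lowest counts on Dex 2, Dex 1 and Control 1. Control 2, 3 and 4 lay on one slide, Dex 1, 2 and 4 on another, and Control 1 and Dex 3 shared the remaining slide, so slide and treatment overlap in large part. Of 8 measured markers of double positive thymocytes, the major cell of the thymus, all were well above background on all arrays and none passed the test below. Their summed level over the 7 genes without a missing value spanned 15.7 to 16.0 in Control and 15.5 to 15.7 in Dex. Such sums run over unlike probes and are descriptions only. Of the 8, 6 lay below 0, with Ptcra lower on all Dex arrays (-0.61, limma adjusted p = 0.154). Cd8b, which the sum leaves out for a missing value, was higher in Dex without overlap among the arrays with a value (+0.52, limma adjusted p = 0.326). The macrophage markers summed to between 12.1 and 12.6 in Control and between 12.1 and 13.1 in Dex. Of 9 macrophage markers 6 lay above and 3 below 0, none passed limma, and the dim Mrc1 (+2.12, limma adjusted p = 0.0870, and 0.69 with normexp) and C1qc (+0.97, limma adjusted p = 0.327) were higher on all Dex arrays. Of 10 markers of epithelium and stroma 9 lay above 0 (median 0.36, sums of 11.9 to 12.4 in Control and 12.2 to 12.7 in Dex), as did all 4 erythroid markers (median 0.52, sums of 8.65 to 10.5 and 8.82 to 11.3). None of these passed limma. Among them Psmb11, a beta subunit that cortical epithelium makes and that is printed under an older name outside the rule, was dim and read 3.47 to 5.77 and well above background on 6 arrays. The part of these markers in the values below was not tested. In a bulk culture, fewer cells of a type and less RNA per cell cannot be told apart.

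Short sequences place the genes on which the results turn. They were copied from the RefSeq promoter table of build GRCr8, which holds 250 bases before and 50 after each start and had an entry for 38 of the 42 member names, and from the array's own probe list, which gives positions on build rn3. The stretch between the annotated ends of Psmc2 and its neighbor Dnajc2, which are transcribed away from each other, is 99 bases long (GRCr8, chr4:14162391-14162489), and it is shown on the Psmc2 strand with a match to the ETS motif CCGGAAG, on the other strand, in capitals.
Psmc2 to Dnajc2: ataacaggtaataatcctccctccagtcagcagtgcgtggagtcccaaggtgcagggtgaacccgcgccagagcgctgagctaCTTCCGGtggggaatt
The Psmc2 probe (rn3, minus strand, chr4:8704187-8704246) and the Psmb9 probe (rn3, plus strand, chr20:4806568-4806627) read the highest cap subunit and the lowest subunit of the comparison.
Psmc2 probe: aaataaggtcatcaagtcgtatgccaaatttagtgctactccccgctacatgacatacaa
Psmb9 probe: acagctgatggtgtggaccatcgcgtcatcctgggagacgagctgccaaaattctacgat
The remaining stretches hold 30 bases each. The Psma6 stretch (chr6:78514117-78514146) carries in capitals the only match among member promoters to the palindromic glucocorticoid response element, searched as G, any base, ACA, any 3 bases, TGT, any base and C, and the stretches of Psmb8 (chr20:4657016-4657045), Psmb10 (chr19:50743346-50743375), Psme2 (chr15:33052785-33052814) and Psma4 (chr8:64236276-64236305) carry in capitals the core of the interferon-stimulated response element, searched as GAAA, any 2 bases and GAAA, on either strand.
Psma6: cctcttttGGACAATATGTTCtccagaatg
Psmb8: gtgctgtggcTTTCGCTTTCacttccttgt
Psmb10: aagcaaaggcGAAAGTGAAAgagaagatgc
Psme2: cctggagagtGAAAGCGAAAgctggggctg
Psma4: gtacagaagaGAAAATGAAAgtggagtgca

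Of the 42 genes that the rule took, 2 rose after dexamethasone and none fell. The 42 include Psmc3ip (-0.43, limma adjusted p = 0.568) and Psma3l (-0.14, limma adjusted p = 0.796), which belong to no class above. Psma4, a subunit of the alpha ring, was 2.52-fold higher in Dex, and Psmc2, an ATPase of the cap base, was 2.08-fold higher. Both calls were lost, leaving 0, when arrays were paired by replicate number, scaled to the 75th percentile or fitted with slide as a fixed block. Each gene has 1 probe, and these 2 of the 50 member probes compare with 0.778% of all 41012 probes that passed limma in either direction, 0.563% of them higher and 0.215% lower in Dex. That split of 231 higher and 88 lower was 497 and 415 with normexp, and it turned to 82 and 164 in replicates 1 and 2 alone. At an unadjusted p under 0.05, 4 member probes passed, beside 10.6% of all probes. The brightest probes of all 42 genes had a median log2 fold change of 0.00 and split into 21 above and 21 below 0, while the median over all gene names was also 0.00. In 37 of the 42 genes, or 88.1%, the log2 fold change was under 0.35 in size, against 61.2% of all gene names by their brightest probe and 67.8% of the probes that were well above background on all arrays. Between arrays of a group the member genes also varied less than the probes well above background, with a median SD of 0.12 in Control and 0.20 in Dex against 0.20 and 0.39. Those probes were not matched to the members in intensity and include dimmer ones. The part of intensity in both comparisons was not tested.

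**Figure D1:**
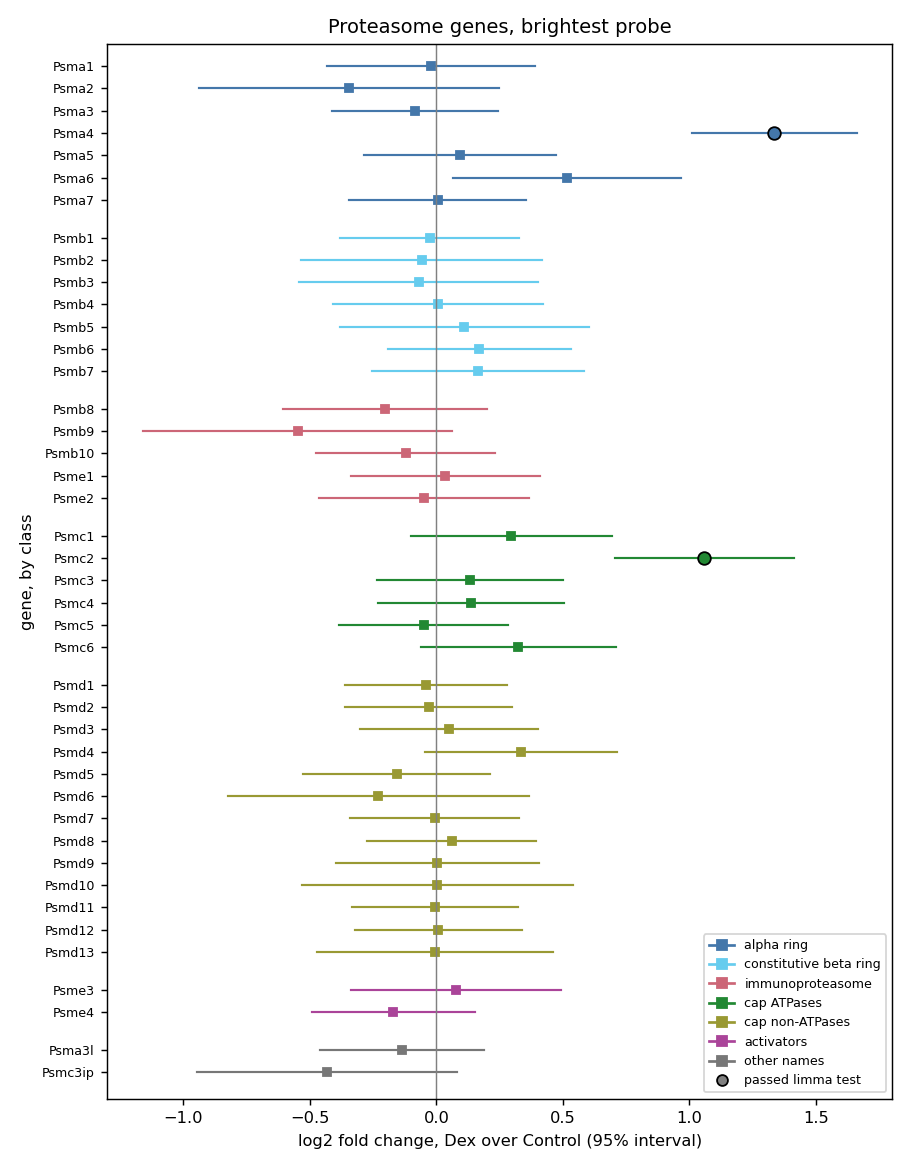
Log2 fold change of Dex over Control for the brightest probe of each of the 42 genes, grouped by class, with 95% limma intervals. Circles with a black edge mark Psma4 and Psmc2, the genes that passed limma at an adjusted p of 0.05; the intervals of 39 genes lie within -1 and 1.

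The intervals bound what these arrays could have missed. For 39 of the 42 genes the 95% limma interval of the log2 fold change lay wholly between -1 and 1, so that a doubling or a halving fell outside it. The same held for 49.2% of all gene names and for 63.5% of the probes well above background on all arrays. The exceptions were Psma4 (1.01 to 1.66), Psmc2 (0.71 to 1.41) and Psmb9 (-1.16 to 0.06).

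Psma4 showed the clearest difference of the alpha ring, whose subunits form the gate of the barrel. Its probe (rn3, plus strand, chr8:58535044-58535103) read 14.38, 14.32, 14.40 and 14.39 on Control arrays 1 to 4 and 15.68, 15.84, 15.81 and 15.51 on Dex arrays 1 to 4. The groups were separated by more than 1 log2 unit, and the Control arrays lay within 0.1 of each other. The log2 fold change was 1.34 ± 0.14 (SE), and limma gave an adjusted p of 0.00643. The call was lost when arrays were paired by replicate number (limma adjusted p = 0.0807) and held when a block set replicates 1 and 2 apart from 3 and 4 (limma adjusted p = 0.00556), while Dex exceeded Control by 1.12 to 1.52 within each replicate number. Scaling the arrays to their 75th percentile gave a log2 fold change of 1.38 and a limma adjusted p of 0.181.

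Psma6, the other alpha subunit with a sizable shift, was read by 2 probes that both lay above 0 without passing the test. The brighter probe (rn3, plus strand, chr6:75670399-75670458) read 14.76, 14.82, 14.75 and 14.62 in Control and 15.48, 15.61, 14.93 and 14.997 in Dex. All Dex arrays lay above all Control arrays, but Dex 1 and Dex 2 were far higher than Dex 3 and Dex 4. The log2 fold change of 0.52 ± 0.20 (SE) had a limma adjusted p of 0.393, and it was 0.75 in replicates 1 and 2 alone and 0.28 in replicates 3 and 4 alone. The dimmer probe differed by 0.65 (limma adjusted p = 0.449), and its groups overlapped. With slide as a fixed block the brighter probe was at 0.17 and the dimmer one turned to -0.12. A further probe, which the array describes by a partial match to a mouse Psma6 cDNA and which the rule did not take, was lower on all Dex arrays (-0.53, limma adjusted p = 0.385). It lies away from Psma6 on the same chromosome (rn3, minus strand, chr6:2728285-2728344), so it is not a further reading of this gene's position.

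None of the other alpha subunits passed. Psma2 was the lowest of them, with values of 11.64, 11.66, 11.19 and 11.06 in Control and 11.34, 11.45, 10.84 and 10.55 in Dex. It was lower in Dex within each replicate number, by 0.21 to 0.52, while the groups overlapped, and the log2 fold change of -0.35 ± 0.26 (SE) had a limma adjusted p of 0.713. Without Dex 4 it was -0.18. Psma1, Psma3, Psma5 and Psma7 lay between -0.09 and 0.09.

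The constitutive beta ring differed little between the groups. Its 7 log2 fold changes ran from -0.07 for Psmb3 to 0.17 for Psmb6, with a median of 0.01, and none passed limma. The subunits with the proteolytic sites were all slightly above 0, but slide as a fixed block turned Psmb5 to -0.41, Psmb6 to -0.19 and Psmb7 to -0.29, and leaving out Dex 2 turned Psmb5 to -0.0040. Psmb5, the chymotrypsin-like subunit that proteasome inhibitor drugs bind, read 12.86, 12.87, 12.41 and 12.37 in Control and 12.88, 13.08, 12.45 and 12.55 in Dex. Both groups held a higher and a lower pair, replicates 1 and 2 against 3 and 4, and the difference of 0.11 ± 0.21 (SE) was smaller than the gap between these pairs (limma adjusted p = 0.899). Psmb6, the caspase-like subunit, read 11.69, 11.55, 11.41 and 11.48 in Control and 11.74, 11.94, 11.50 and 11.63 in Dex (+0.17, limma adjusted p = 0.769). Psmb7, the trypsin-like subunit, read 12.23, 11.95, 11.75 and 11.77 in Control and 12.20, 12.32, 11.95 and 11.89 in Dex (+0.16, limma adjusted p = 0.810). In both genes the groups overlapped.

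**Figure D2:**
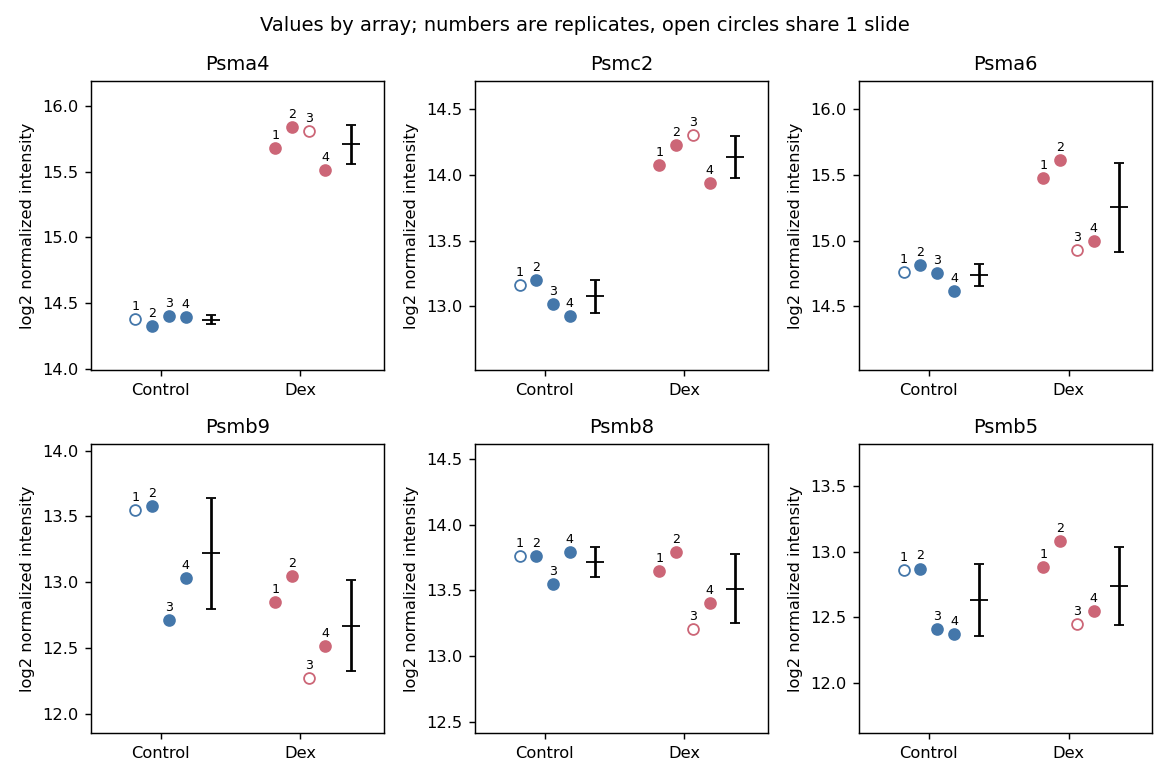
Log2 normalized intensity of 6 proteasome genes on each array, with the replicate number beside each point, the mean and SD as bars, and open circles for the arrays that share a slide. Each panel spans 2.2 log2 units. Psma4, Psmc2 and Psma6 are higher on all Dex arrays, while the groups of Psmb9, Psmb8 and Psmb5 overlap.

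In the immunoproteasome 4 of 5 genes lay below 0, none passed limma, and only Psmb9 differed by more than 0.35 in size. Psmb9, which replaces Psmb6 at the caspase-like site, read 13.55, 13.58, 12.71 and 13.03 in Control and 12.85, 13.05, 12.27 and 12.51 in Dex. The groups overlapped because both fell into a high and a low pair. Between arrays of the same replicate number, which no label pairs, Dex was lower by 0.70, 0.53, 0.45 and 0.52 for numbers 1 to 4. The log2 fold change of -0.55 ± 0.27 (SE) was the lowest of the 42 genes, and limma gave an adjusted p of 0.535 without a block, 0.284 when arrays were paired by replicate number and 0.114 when a block set replicates 1 and 2 apart from 3 and 4. Slide as a fixed block moved it to -1.28. Psmb8, which replaces Psmb5, read 13.76, 13.76, 13.55 and 13.79 in Control and 13.65, 13.79, 13.20 and 13.40 in Dex (-0.20, limma adjusted p = 0.748). Its Dex 3 and Dex 4 arrays lay below all Control arrays and its Dex 1 and Dex 2 arrays among them, and without Dex 3 it differed by -0.10. Psmb10, which replaces Psmb7, read 13.60, 13.79, 13.52 and 13.54 in Control and 13.60, 13.66, 13.33 and 13.38 in Dex (-0.12, limma adjusted p = 0.839), and without Control 2 or Dex 3 it differed by -0.061 or -0.066.

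The PA28 subunits showed small differences of unsettled sign. Psme1 read 12.91, 12.73, 12.48 and 12.67 in Control and 12.85, 12.90, 12.58 and 12.60 in Dex (+0.04, limma adjusted p = 0.961). Psme2 read 12.07, 12.02, 11.72 and 11.71 in Control and 11.90, 12.13, 11.58 and 11.71 in Dex (-0.05, limma adjusted p = 0.950). The sign of Psme1 turned when slide was fitted as a fixed block and when Control 3, Dex 1 or Dex 2 was left out, and that of Psme2 when slide was a random block or Control 1 or Dex 3 was left out. Of the activators outside the immunoproteasome, nuclear Psme3 differed by 0.08 (limma adjusted p = 0.915), with the sign turned when Dex 3 was left out, and Psme4, which caps the core in place of the ATPases, by -0.17 (limma adjusted p = 0.735), with its second probe at -0.19.

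In the cap, Psmc2 stood apart from the other 5 ATPases. It read 13.16, 13.20, 13.02 and 12.93 in Control and 14.08, 14.23, 14.30 and 13.94 in Dex. All Dex arrays lay far above all Control arrays. The log2 fold change was 1.06 ± 0.15 (SE), and limma gave an adjusted p of 0.0259. The call was lost when arrays were paired by replicate number (limma adjusted p = 0.127), when they were scaled to the 75th percentile (limma adjusted p = 0.310) and when any array other than Dex 4 was left out (limma adjusted p from 0.0619 to 0.119, and 0.0495 without Dex 4), and it held when a block set replicates 1 and 2 apart from 3 and 4 (0.0159). The size stayed between 0.97 and 1.14 in every alternative.

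Among the other ATPases, which form a ring with Psmc2 in the assembled cap, Psmc6 and Psmc1 were the next highest. Psmc6 read 11.94, 11.90, 11.87 and 11.88 in Control and 12.33, 12.53, 11.96 and 12.07 in Dex, with all Dex arrays above all Control arrays and most of the difference in replicates 1 and 2. Its log2 fold change of 0.32 had a limma adjusted p of 0.567, and its second probe differed by 0.21 with overlapping groups. Psmc1 read 12.95, 13.14, 12.90 and 12.93 in Control and 13.34, 13.59, 13.00 and 13.18 in Dex (+0.30, limma adjusted p = 0.625). With slide as a fixed block the brighter Psmc6 probe was at 0.02, the second at 0.13 and Psmc1 at 0.05. Psmc3 and Psmc4 lay at 0.13 and 0.14, with the second Psmc4 probe at 0.16, and Psmc5 at -0.05.

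The 13 cap non-ATPases differed little. Their median log2 fold change was -0.01, all were under 0.35 in size, none passed limma and none separated the groups. Psmd4, a receptor for ubiquitin chains, was the highest, with 13.15, 13.21, 12.90 and 13.02 in Control and 13.50, 13.65, 13.19 and 13.28 in Dex. It was higher in Dex within each replicate number, by 0.26 to 0.44 (+0.33, limma adjusted p = 0.546). With slide as a fixed block it was at 0.04. Psmd6, a lid subunit, was the lowest and among the dimmest, with 9.31, 9.23, 9.08 and 8.96 in Control and 9.22, 9.45, 8.62 and 8.37 in Dex (-0.23, limma adjusted p = 0.815). Psmd5, an assembly chaperone of the base, differed by -0.16 (limma adjusted p = 0.795). Both turned sign in replicates 1 and 2 alone, at 0.07 and 0.01. The scaffold subunits Psmd1 and Psmd2 differed by -0.04 and -0.03 by their brighter probes and by -0.14 and -0.06 by their dimmer ones. The 3 probes of Psmd7, which pairs with the lid deubiquitinase, differed by -0.01, -0.24 and -0.24.

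In all, 4 member probes separated the groups, those of Psma4, Psma6, Psmc2 and Psmc6, each with all Dex arrays above all Control arrays. None had all Dex arrays below. Over all probes, 9.11% separated the groups, 4.6% higher and 4.51% lower in Dex. The share of 4 in 50 is near this background, so it is no result about the proteasome genes as a group. The signal to noise statistic of the study's methods called 3 member probes, those of Psma4, Psmc2 and the brighter Psma6 probe, beside 6.79% of the probes it tested.

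**Figure D3:**
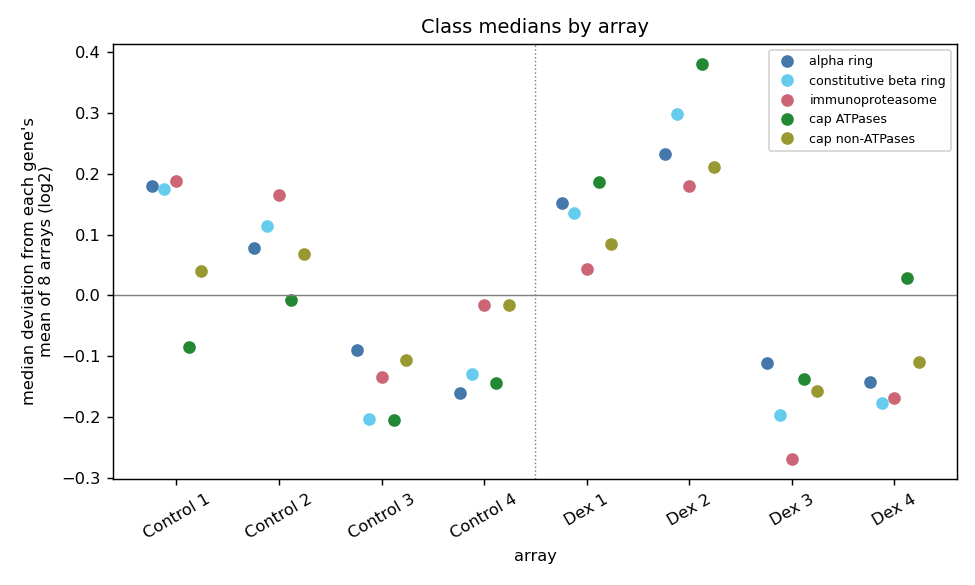
Median over the genes of each class of the deviation from each gene's mean of 8 arrays (log2), by array. In both groups replicates 1 and 2 lie above replicates 3 and 4 in all 5 classes, and the immunoproteasome is the lowest class on Dex 1, 2 and 3.

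The classes shared a pattern from array to array. The median deviation of the 42 genes from their own means was 0.09 and 0.08 on Control 1 and 2, -0.13 and -0.10 on Control 3 and 4, 0.12 and 0.22 on Dex 1 and 2, and -0.15 and -0.12 on Dex 3 and 4. In both groups the arrays of replicates 1 and 2 were the higher ones. Between the group means these medians over all 42 genes differed by 0.03, against a pooled SD of 0.15 between arrays. For the cap ATPases this difference was 0.22 against a pooled SD of 0.17, and for the immunoproteasome -0.10 against 0.18, where the pooled SD includes the shift between replicates 1 and 2 and replicates 3 and 4 that both groups share. The median log2 fold change was 0.00 for the alpha ring and 0.01 for the constitutive beta ring, 0.22 for the cap ATPases, -0.01 for the cap non-ATPases and -0.12 for the immunoproteasome. The ATPase median was 0.32 in replicates 1 and 2 alone and 0.09 in replicates 3 and 4 alone, and that of the immunoproteasome -0.04 and -0.17.

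Set against the core on the same array, the immunoproteasome was lower on the Dex arrays. The class median of its 5 genes minus that of the 14 core genes, as deviations from each gene's mean, was 0.01, 0.07, 0.06 and 0.13 on Control 1 to 4 and -0.10, -0.10, -0.14 and -0.02 on Dex 1 to 4. The groups did not overlap, and the position of 0 between them follows from the centering on the 8 arrays. Without Psmb9 the Control values ran from -0.01 to 0.11 and the Dex values from -0.12 to -0.01, and the groups only just failed to touch. With means in place of medians and without Psma4 in the core, the range was 0.03 to 0.18 in Control and -0.17 to -0.04 in Dex. These are descriptions over few genes and carry no test. The same difference between the 19 cap genes and the core ran from -0.20 to 0.08 in Control and from -0.02 to 0.06 in Dex, with overlapping groups.

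The neighborhoods of the members on the chromosomes were read next. Within 100 kb of a member's probe on rn3 lay 426 other probes, of which 5 passed limma, all higher in Dex, or 1.17%, beside 0.778% of all probes in either direction and 0.563% higher. The 5 probes stand for 3 genes, which is near that background. They were the Dnajc2 probe near Psmc2, both Nfkbia probes near Psma6 and both Kcnk6 probes near Psmd8, a lid subunit that itself differed by 0.06. Kcnk6 encodes a potassium channel and rose by 1.29 and 1.35 (limma adjusted p = 0.0103 and 0.0201).

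Psmc2 and the adjacent Dnajc2 rose together. Dnajc2, a ribosome-associated chaperone, read 12.32, 12.47, 12.50 and 12.27 in Control and 13.81, 13.94, 14.15 and 13.86 in Dex, with every Dex array more than 1 log2 unit above every Control array. Its log2 fold change of 1.55 ± 0.15 (SE) had a limma adjusted p of 0.00413, and 0.0498 when arrays were paired by replicate number. The probes of both genes lie 39.5 kb apart on rn3 and on opposite strands, and the annotated starts of the genes face each other across the 99 bases shown above. On the far side of Dnajc2, Pmpcb, a mitochondrial processing peptidase, differed by 0.10 (limma adjusted p = 0.850).

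Around Psma6, Nfkbia, the inhibitor of NF-kappaB that glucocorticoids are known to induce, rose by 1.41 and 2.40 on its 2 probes (limma adjusted p = 0.00643 and 0.0186). Paired by replicate number, the first lost its call (limma adjusted p = 0.0673) and the second held it (0.0416), while both Kcnk6 probes lost theirs (0.0789 and 0.0724). Nfkbia lies 62.2 kb from Psma6 in GRCr8. Around Psma4, Chrna5 was higher on all Dex arrays by 1.04 (limma adjusted p = 0.152), and Ireb2 differed by -0.01 and -0.09. Next to Psmb9 in the major histocompatibility complex, Tap1, a subunit of the peptide transporter, read 11.90, 11.998, 11.91 and 12.19 in Control and 11.68, 11.74, 11.26 and 11.59 in Dex, with all Dex arrays lower (-0.43, limma adjusted p = 0.401). The annotated starts of Tap1 and Psmb9 face each other across 408 bases in GRCr8.

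**Figure D4:**
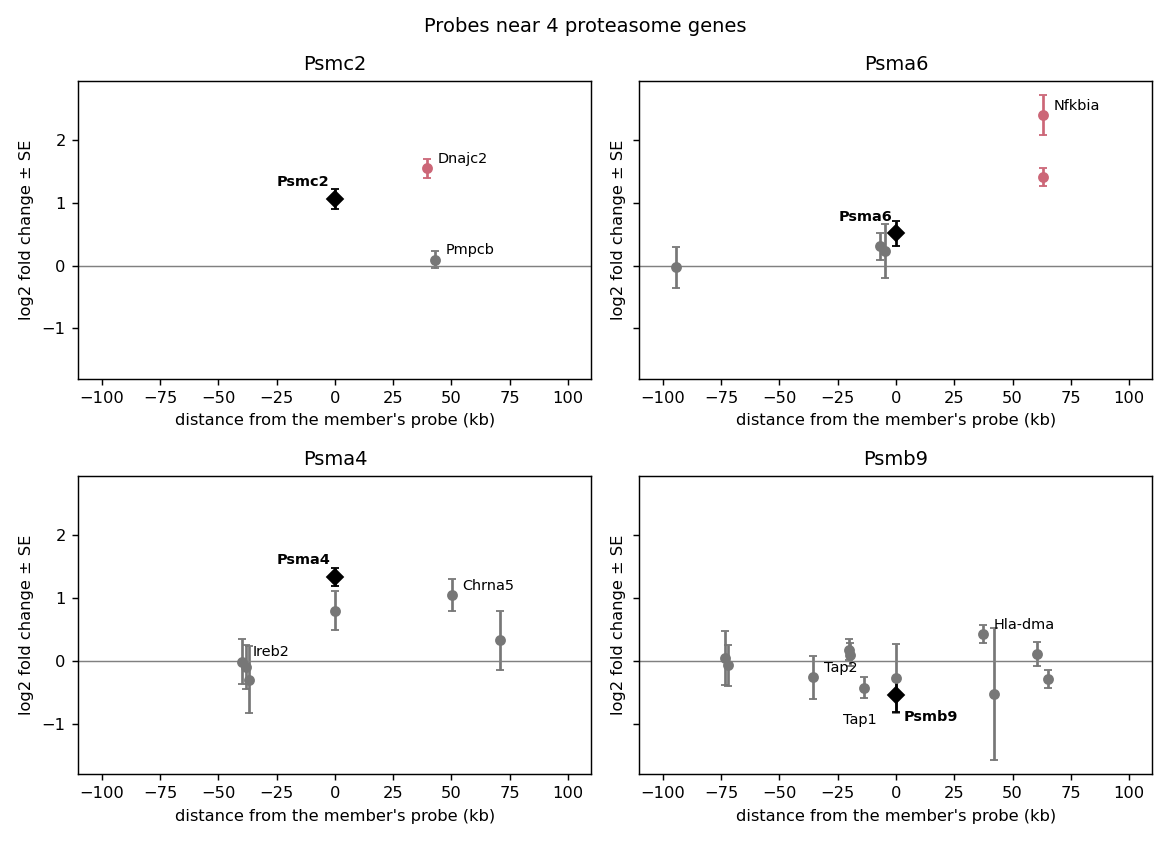
Log2 fold change of Dex over Control, with SE, of probes well above background on all arrays within 100 kb of the probes of Psmc2, Psma6, Psma4 and Psmb9, by distance from that probe in kb. Black diamonds are the proteasome genes and red points passed limma: Dnajc2 beside Psmc2 and both Nfkbia probes beside Psma6.

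The promoter windows were searched on both strands for 5 motifs, whose letters can overlap each other in a window. The glucocorticoid response element, spelled above, was present in 1 of 38 member promoters, that of Psma6, and in 0.439% of 33469 rat promoters of the same length. The match lies at -222 to -210 from the start that the table uses, and this start is 13.7 kb inside the Psma6 gene record. The core of the interferon-stimulated response element was present in 6 of 38 (Psma4, Psmb3, Psmb8, Psmb10, Psmd7 and Psme2), which include 3 of the 5 immunoproteasome genes, and in 3.92% of all. CCGGAAG was present in 13 of 38 and in 8.75% of all, CCAAT in 20 of 38 and in 37.5%, and TGACNNNGC, the core of the antioxidant response element to which Nfe2l1 and Nfe2l2 bind, in 8 of 38 and in 12.1%. Neither Psma4 nor Psmc2 held the glucocorticoid response element or TGACNNNGC in this window. A match describes the letters of the window and is no evidence of binding.

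In the wider ubiquitin-proteasome pathway no gene passed the test. Of 44 listed names 39 were matched, and none passed limma in either direction. Of the unmatched names, Ube1x is an older name of Uba1, which was measured, and Shfm1 names the lid subunit DSS1, for which a similar probe outside the rule differed by -0.20 (limma adjusted p = 0.720). An unadjusted p under 0.05 was reached by 7 of them, and 5 (Txnl1, Ubqln1, Uba1, Nfe2l2 and Mafk) were called by the methods' signal to noise statistic, beside 10.6% and 6.79% of all probes. By the brightest probe of each gene name, 0.751% of all names passed limma. The median log2 fold change was -0.03, with 15 genes above and 24 below 0. Among the factors that drive proteasome genes, Nfe2l1 differed by -0.26 (limma adjusted p = 0.738), with the sign turned in replicates 1 and 2 alone, and Nfe2l2 by 0.43 with all Dex arrays above all Control arrays (limma adjusted p = 0.393). Nfe2l3, read by a dim probe with overlapping groups, differed by -0.78 (limma adjusted p = 0.367). Over the alternatives it ran from -1.09 to -0.31, with the smallest size under normexp. The partner of these factors, Mafg, differed by 1.31 (limma adjusted p = 0.506). It read 8.20, 8.55, 8.96 and 9.04 in Control and 9.11, 8.95, 10.12 and 11.82 in Dex. The Mafg groups overlapped and its Dex arrays spread over almost 3 log2 units, and without Dex 4 it differed by 0.70. Of the other small Maf partners, Mafk was lower on all Dex arrays (-0.63, limma adjusted p = 0.278), and Maff differed by 0.20 (limma adjusted p = 0.770). Of the upstream enzymes, Uba1, which activates ubiquitin, was higher on all Dex arrays (+0.64, limma adjusted p = 0.149), and the proteasome-associated thioredoxin Txnl1 was lower on all of them (-0.63, limma adjusted p = 0.124). Uba1, Txnl1, Ubqln1, Mafk and Maff were chosen after their values had been seen. Of 14 further probes that the array describes as proteasome-like but names otherwise, such as predicted copies of Psmb3, Psmb6 and Psme2 and 2 PI31-like transcripts, none passed limma, and 1 had an unadjusted p under 0.05.

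**Figure D5:**
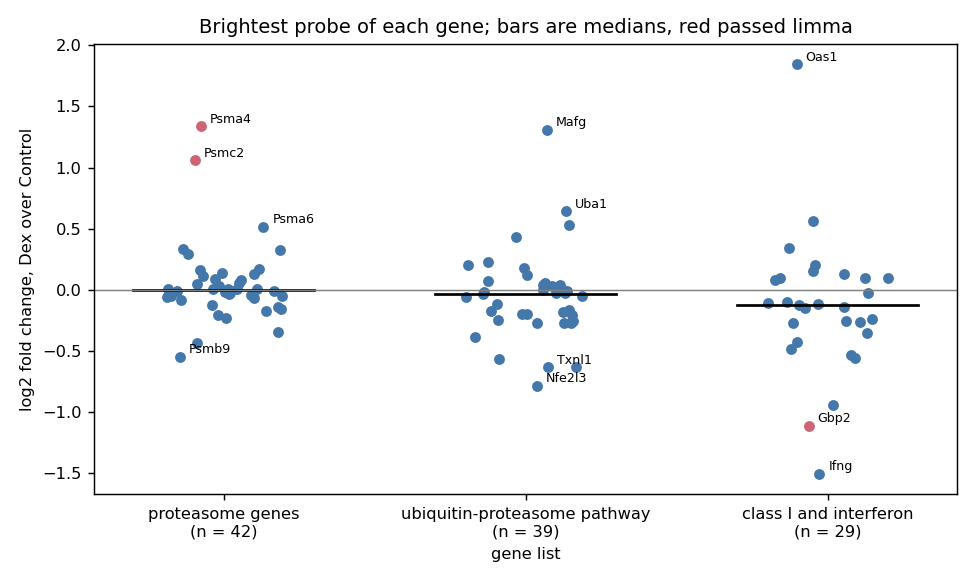
Log2 fold change of Dex over Control by the brightest probe of each gene, for the 42 proteasome genes, 39 genes of the ubiquitin-proteasome pathway and 29 class I and interferon genes, with medians as bars. Red points passed limma: Psma4 and Psmc2 upward and Gbp2 downward.

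The class I and interferon genes with which the immunoproteasome is usually coexpressed had a median of -0.13 over 29 genes measured out of 32 listed, with 10 above and 19 below 0. Only Gbp2, an interferon-induced GTPase, passed limma, beside 0.751% of all gene names, at 11.50, 11.12, 11.51 and 11.77 in Control and 10.33, 10.48, 10.23 and 10.43 in Dex. All Dex arrays were lower, and the log2 fold change of -1.11 had a limma adjusted p of 0.0375, which became 0.160 when arrays were paired by replicate number and 0.0586 to 0.140 when 1 array was left out. Ifng, the interferon that induces the immunoproteasome, read 5.13, 5.42, 5.48 and 5.63 in Control and 4.46, 4.63, 3.20 and 3.35 in Dex (-1.50, limma adjusted p = 0.137). This dim probe differed by -0.36 with normexp, by -0.73 in replicates 1 and 2 alone and by -2.28 in replicates 3 and 4 alone. Oas1, an interferon-induced antiviral enzyme, went the other way, at 7.13, 7.18, 6.39 and 6.82 in Control and 8.97, 9.37, 8.003 and 8.54 in Dex (+1.84, limma adjusted p = 0.0533, and 0.0495 when paired by replicate number). Over the alternatives it ran from 0.87, with slide as a fixed block, to 2.08, and it was 1.24 with normexp. Of 9 peptide loading genes, 7 lay below 0 and none passed. Of 20 interferon signaling and response genes, 12 lay below 0, and 7 of the 20 separated the groups, 2 with Dex higher and 5 with Dex lower, where 8.91% of all gene names separated them in either direction.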

How the data were processed

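Whole genome expression was measured on 1-color Agilent arrays. The authors extracted the deposited intensities with Feature Extraction (version 9.5.3.1, per the file headers), which corrects each spot for background and gives 0 or 1 flags. They also deposited log2 values that were quantile normalized and summarized by median polish. Positions refer to rn3 in the file headers. The members and gene lists were chosen with earlier results of these data known.

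Control spots and spots that the scanner software marked as outliers were dropped, and 16 of the values of 41012 probes were then missing. Processed intensities were log2-transformed, quantile normalized and summarized by median polish. limma (version 3.58.1, R version 4.3.3) compared Dex with Control over all 8 arrays, two-sided and without a block, with p-values adjusted by Benjamini-Hochberg across every probe and a threshold of 0.05, and was tested on simulated data. The brightest probe stands for a gene. The study's methods state 3 biological replicates, while 4 arrays a group are given, and how the arrays map onto separate cultures is not stated. The p-values measure the spread between these arrays, which may be technical in part, and their number limits the precision. The methods' signal to noise statistic was also run, with calls at a fold of 1.2 and a one-tailed nominal p of 0.01. Its null distribution was pooled over all probes and all 70 assignments of the arrays, where the methods drew random permutations of samples and probes.

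Genes named were the immunoproteasome, the subunits it replaces, Psmd4, every called member, the 3 largest differences in each class, and, in the other lists, called genes, the 2 largest differences and Nfe2l1 and Nfe2l2. Other genes, neighbors included, were named after their values had been seen. Deviations from the group means correlated between arrays of the same replicate number at 0.40, 0.13, 0.55 and 0.18. This was taken as pairing, although no label pairs the arrays and the correlations mostly follow replicates 1 and 2 against 3 and 4. Inside those sets, unlike numbers correlated at 0.40 (Control 1, Dex 2), 0.19 (Control 2, Dex 1), 0.39 (Control 3, Dex 4) and 0.07 (Control 4, Dex 3). Alternatives were 75th percentile scaling, normexp with an offset of 50, the deposited values, dim probes left out, blocks for replicate, for slide (fixed or random) and for replicates 1 and 2 against 3 and 4, each array left out, the mean over a gene's probes and, chosen after seeing the data, replicates 1 and 2 or 3 and 4 alone and the immunoproteasome without Psmb9.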

Additional observations from a re-analysis of the deposited data

Results flagged for a closer look

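Among the proteasome and other named genes, 98 groups of 4 arrays were examined for an array far from the others, and chance alone marks about 1 in 20. In Psmb8, Control 3 (13.55) lay below the other Control arrays (13.76 to 13.79), and the gap took up 0.855 of the group's range. This was the only one.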

How the results depend on the processing

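Against 319 of all probes that passed limma, 166 passed with 75th percentile scaling, 912 with normexp, 550 with dim probes left out, 81 with the replicate number as a block, 1 with slide as a fixed block, 1838 with slide as a random block, 670 with a block for replicates 1 and 2 against 3 and 4, 246 in replicates 1 and 2 alone (82 higher, 164 lower), 0 in replicates 3 and 4 alone, 2784 by the signal to noise statistic and 96 to 249 when 1 array was left out. Of the 2 proteasome probes, 0 passed with 75th percentile scaling, the replicate block, slide as a fixed block or either pair of replicates alone, and 1 to 2 when 1 array was left out. The fixed slide block rests on Dex 3 against Control 1, the only slide with both groups. It moved the medians to -0.29 (alpha ring), -0.39 (constitutive beta ring), -0.041 (cap ATPases), -0.18 (cap non-ATPases), -0.48 (immunoproteasome) and -0.26 (all 42 genes), and turned Psme1 to -0.32, Psmb5 to -0.41, Psmb6 to -0.19 and Psmb7 to -0.29. Slide as a random block turned Psme2 to 0.023. In replicates 1 and 2 alone, chosen after seeing the data, Psmd6 turned to 0.066, Psmd5 to 0.0073 and Nfe2l1 to 0.033. Leaving out 1 array gave -0.036 to 0.104 for Psme1, -0.15 to 0.033 for Psme2, -0.0040 to 0.209 for Psmb5 and -0.0037 to 0.19 for Psme3. Without a change of sign it gave 0.092 to 0.239 for Psmb6, 0.088 to 0.268 for Psmb7, 0.19 to 0.39 for Psmc1, -0.41 to -0.048 for Psmd6, -0.23 to -0.094 for Psmd5 and -0.37 to -0.14 for Nfe2l1. In the ubiquitin-proteasome pathway, where none passed, 3 did with normexp, 2 with slide as a random block and 5 by the signal to noise statistic. Of the class I and interferon genes, where 1 passed, 0 did with 75th percentile scaling, slide as a fixed block or either pair of replicates alone, 3 with normexp, 2 with dim probes left out, 6 with slide as a random block, 2 with the block for replicates 1 and 2 against 3 and 4, 8 by the signal to noise statistic and 0 to 1 when 1 array was left out. The cause of these changes was not tested. The replicate block changed no proteasome call other than those of Psma4 and Psmc2.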
